A study of Homo sapiens with 38 samples.

Results

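The genes of the insulator protein CTCF and of cohesin were examined for binding of transcription factor Sp1 and of engineered Sp1 and CTCF constructs. The 10 genes were CTCF, the cohesin ring genes SMC1A, SMC3 and RAD21, the ring-binding subunits STAG1 and STAG2, the loader NIPBL, the release factor WAPL, and PDS5A and PDS5B. They were followed among 19970 protein-coding genes on chromosomes 1 to 22 and X. A gene was counted in a list if a peak overlapped it or came within 5000 bp of one of its annotated transcript starts. By this rule 16 of 27085 peaks lay at 3 of the 10 genes: 11 at CTCF, 4 at STAG1 and 1 at RAD21. The other 7 genes had a peak in none of the 19 lists, as did 13111 of all protein-coding genes (65.7%).

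Binding was mapped by CUT&RUN, in which an antibody directs a nuclease to cut the DNA around the bound protein. All cells were U2OS, an osteosarcoma line, carrying a homozygous knock-in that tags endogenous Sp1 with V5 and Halo, and all lines derive from 1 knock-in clone. The parental line is called CTRL. In the derived lines a FLAG-tagged construct was integrated at the AAVS1 safe harbor locus under a doxycycline-inducible promoter. The constructs were full-length Sp1 (Sp1 WT), Sp1 without its N-terminal IDR, which keeps the zinc finger DNA-binding domain (Sp1 DBD), the Sp1 DBD joined to the intrinsically disordered region (IDR) of EWS (EWS IDR-Sp1 DBD), the CTCF DNA-binding domain alone (CTCF DBD), and the CTCF domain joined to the Sp1 IDR (Sp1 IDR-CTCF DBD). Control constructs were the bacterial LacI domain alone or with the Sp1 IDR (named activation domain in the labels), SNAP-NLS, and Sp1 DBD Mutant, a truncated Sp1 that keeps 1 of its zinc fingers. Cells received 1 µg/ml doxycycline for 36 h, were sorted for transgene expression, and were kept in doxycycline for another 36 h. Anti-FLAG reads the construct and anti-V5 reads endogenous Sp1. The V5 antibodies, 1 from rabbit and 1 from mouse, were used in CTRL, Sp1 WT, Sp1 IDR-LacI and Sp1 IDR-CTCF DBD cells. Each of the 19 lists joins 2 biological replicates, holds peaks with an irreproducible discovery rate (IDR rate) of at most 0.1, and ranges from 22 to 5151 peaks. Sp1 WT had the longest list.

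CTCF binds DNA through a row of zinc fingers and is known for marking the borders at which cohesin stops. Cohesin is a ring of SMC1A, SMC3 and the kleisin RAD21 that holds sister chromatids together and extrudes chromatin loops. Sp1 binds GC boxes, short G-rich elements common in the promoters of widely expressed genes. The genes examined here thus encode the factor whose DNA-binding domain was borrowed for the constructs, together with the complex it works with.

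The DNA under the Sp1 WT summits of CTCF and STAG1 is shown first, because these windows carry most of the peaks described here. Each spans 100 bp to either side of the summit in hg38, is written 5′ to 3′ on the gene's strand, and has the GC box GGGCGG, or its complement CCGCCC, in capitals. The CTCF window lies at chr16:67562026-67562226 on the plus strand and the STAG1 window at chr3:136752522-136752722 on the minus strand.
CTCF summit: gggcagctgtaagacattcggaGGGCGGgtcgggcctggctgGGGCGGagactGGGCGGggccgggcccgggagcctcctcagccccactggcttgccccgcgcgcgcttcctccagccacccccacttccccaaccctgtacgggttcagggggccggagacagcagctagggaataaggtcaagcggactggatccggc
STAG1 summit: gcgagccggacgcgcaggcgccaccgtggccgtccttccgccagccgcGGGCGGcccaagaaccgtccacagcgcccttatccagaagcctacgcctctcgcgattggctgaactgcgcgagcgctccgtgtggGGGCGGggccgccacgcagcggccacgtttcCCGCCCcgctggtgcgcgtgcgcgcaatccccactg
Each window holds 3 GC boxes. In the CTCF window all 3 lie upstream of the summit, the nearest 44 bp from it. The next 3 sequences are the 250 bp before the gene start of genes with no peak, shown because they hold GC boxes as well. They lie at chr13:32586202-32586451 for PDS5B (plus strand), chrX:53422729-53422978 for SMC1A (minus strand) and chrX:123959962-123960211 for STAG2 (plus strand).
PDS5B upstream: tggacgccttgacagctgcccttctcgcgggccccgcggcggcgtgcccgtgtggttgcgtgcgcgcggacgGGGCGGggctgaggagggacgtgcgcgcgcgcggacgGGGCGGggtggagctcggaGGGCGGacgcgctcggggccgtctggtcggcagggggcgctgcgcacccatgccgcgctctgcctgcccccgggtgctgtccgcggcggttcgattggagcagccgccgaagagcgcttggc
SMC1A upstream: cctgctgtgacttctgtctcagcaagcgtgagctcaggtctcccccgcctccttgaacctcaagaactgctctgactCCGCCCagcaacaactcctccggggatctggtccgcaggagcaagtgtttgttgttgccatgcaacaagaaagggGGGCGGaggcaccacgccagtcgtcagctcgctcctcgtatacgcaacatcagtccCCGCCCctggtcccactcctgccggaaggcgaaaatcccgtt
STAG2 upstream: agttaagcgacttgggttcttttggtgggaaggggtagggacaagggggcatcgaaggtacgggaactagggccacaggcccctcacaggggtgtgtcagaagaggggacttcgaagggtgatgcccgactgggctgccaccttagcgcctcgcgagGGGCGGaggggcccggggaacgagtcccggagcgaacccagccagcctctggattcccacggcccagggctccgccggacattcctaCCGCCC
PDS5B and SMC1A have 3 GC boxes each in this stretch and STAG2 has 2.

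Counted by list, from 0 to 3 of the 10 genes had a peak. Sp1 WT had peaks at 3 of the 10, CTCF, STAG1 and RAD21, against 27.6% of all protein-coding genes. Sp1 DBD had peaks at 0 of 10, against 18.5%. EWS IDR-Sp1 DBD had a peak at 1, CTCF, against 13.4%. CTCF DBD had peaks at 0 of 10, against 2.80%. Sp1 IDR-CTCF DBD had a peak at 1, again CTCF, against 0.826%. With so few genes, 1 gene more or less moves a count by 10 percentage points.

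Endogenous Sp1 had peaks at 1 or 2 of the genes in each line. With rabbit anti-V5, CTRL cells had a peak at 1 gene (12.2% of all genes) and Sp1 WT cells at 1 (10.2%). Sp1 IDR-LacI cells had peaks at 2 (13.0%), as did Sp1 IDR-CTCF DBD cells (13.0%). With mouse anti-V5, the counts were 1 in CTRL (11.4%), 1 in Sp1 WT (8.09%), 1 in Sp1 IDR-LacI (10.3%) and 2 in Sp1 IDR-CTCF DBD cells (8.59%). CTCF was the gene in all 8 of these lists and STAG1 the second gene in 3 of them. The 6 control anti-FLAG lists had peaks at 0 of the 10 genes. In those lists, percentages of all genes were 0.00501% for CTRL with mouse anti-FLAG, 0% for CTRL with rabbit anti-FLAG, 0.01% for SNAP-NLS, 0% for LacI, 0.00501% for Sp1 IDR-LacI and 0% for Sp1 DBD Mutant.

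**Figure D1:**
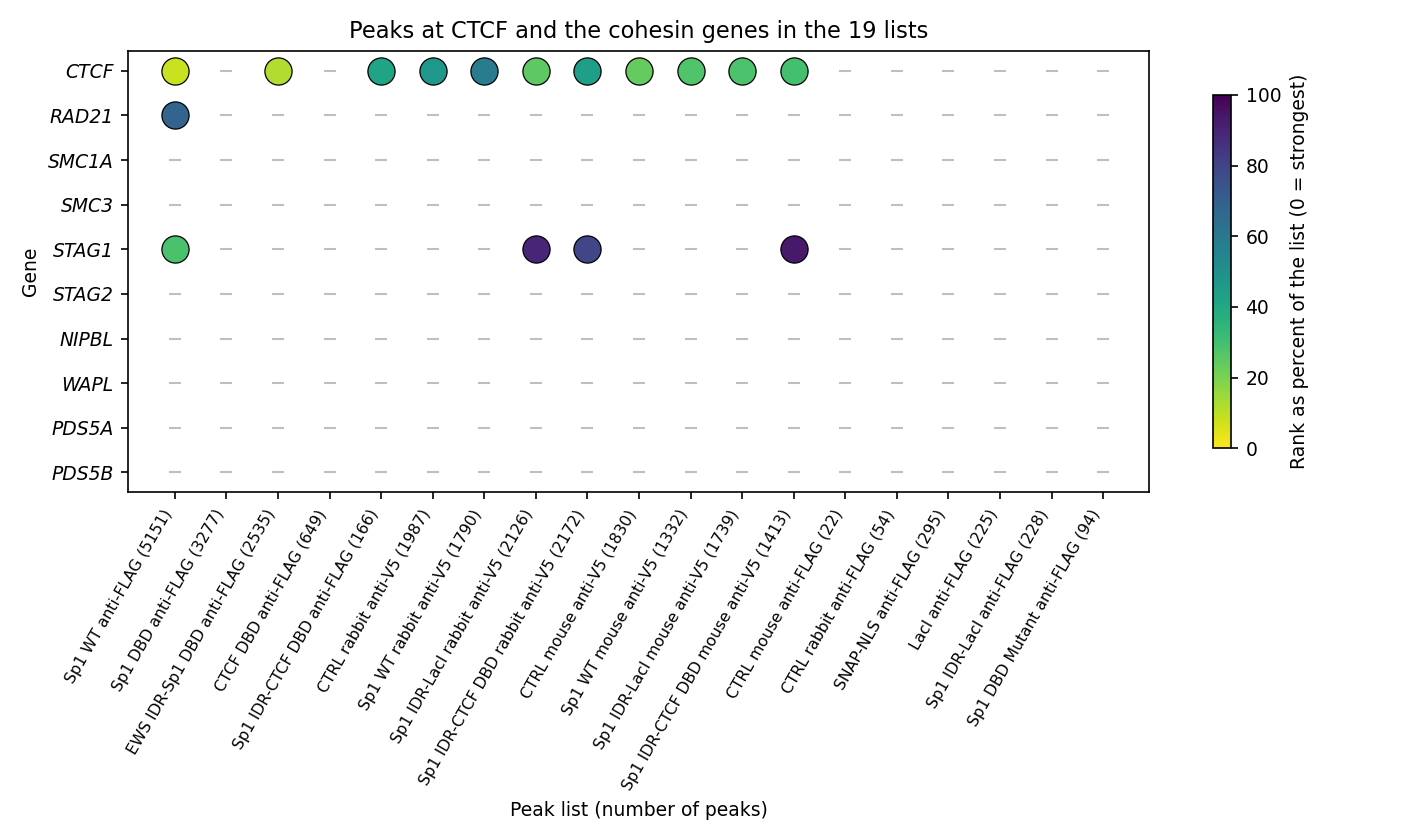
Each row is 1 of the 10 genes and each column 1 of the 19 peak lists, with its number of peaks in brackets; a circle marks a peak, coloured by its rank as a percent of the list, and a dash marks no peak. CTCF has circles in 11 columns, STAG1 in 4 and RAD21 in 1, and the 6 control columns on the right have none.

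CTCF (ENSG00000102974.16, chr16:67562467-67639177, plus strand) had a peak in more lists than any other of the 10. In the Sp1 WT list its peak spanned chr16:67561566-67563630 and ranked 406 of 5151, within the strongest 7.88%. The authors' −log10 p values were 48.5 and 76.2 in the 2 replicates, and their summits lay only 2 bp apart, at −342 and −340 bp from the gene start. The EWS IDR-Sp1 DBD peak ranked 298 of 2535, within the strongest 11.8%, with −log10 p values of 30.6 and 44.1. Its summit was 350 bp upstream of the gene start, against 341 bp for Sp1 WT.

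As a percent of its own list, the CTCF peak ranked at 7.94% and 7.20% in the Sp1 WT replicates and at 15.3% and 8.24% in the EWS IDR-Sp1 DBD replicates. Both EWS IDR-Sp1 DBD values were weaker than both Sp1 WT values, which also held for 52.1% of the 2180 genes with a peak in both lists. With 2 replicates a side, an exact permutation test could give no two-sided p under 0.333, and none was made. Ranks in lists of different length measure the order within a list and not the amount of bound protein.

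Sp1 DBD, which carries the same zinc fingers, had no peak at CTCF. Its nearest peak was 131 kb away at HSD11B2, ranked 2611 of 3277. Among 569 genes with peaks in the Sp1 WT, EWS IDR-Sp1 DBD and all 8 anti-V5 lists, 520 had a Sp1 DBD peak and 49 (8.61%) had none, CTCF among them. Of the 199 Sp1 WT peaks within 100 ranks of the CTCF peak, 21 (10.6%) were overlapped by no Sp1 DBD peak and 52 (26.1%) by no EWS IDR-Sp1 DBD peak. CTCF thus belonged to the smaller share in which no Sp1 DBD peak was called.

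Endogenous Sp1 was found at the CTCF promoter with both antibodies in all 4 lines. With mouse anti-V5, the peak ranked 433 of 1830 in CTRL, 365 of 1332 in Sp1 WT, 490 of 1739 in Sp1 IDR-LacI and 423 of 1413 in Sp1 IDR-CTCF DBD cells. As a percent of the list these ranks run from 23.7% to 29.9%, and the replicate ranks of each line overlapped with those of CTRL. With rabbit anti-V5, the ranks were 933 of 1987, 1051 of 1790, 525 of 2126 and 953 of 2172 in the same order of lines. These range from 24.7% in Sp1 IDR-LacI cells to 58.7% in Sp1 WT cells, a wider spread than with the mouse antibody.

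Between lines, 1 of the 6 comparisons with CTRL had replicates that did not overlap. With rabbit anti-V5 the CTCF peak ranked at 49.7% and 86.2% in Sp1 WT cells against 47.2% and 24.6% in CTRL cells. The same direction without overlap was seen for 36.0% of 1733 genes. With mouse anti-V5 the Sp1 WT replicates, at 27.5% and 44.6%, overlapped with those of CTRL, at 23.7% and 28.4%. The lower rank of CTCF in Sp1 WT cells was therefore not seen without overlap with the second antibody. Within Sp1 WT cells the mouse antibody ranked the peak higher than the rabbit antibody in both replicates, as it did for 11.1% of 1415 genes.

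**Figure D2:**
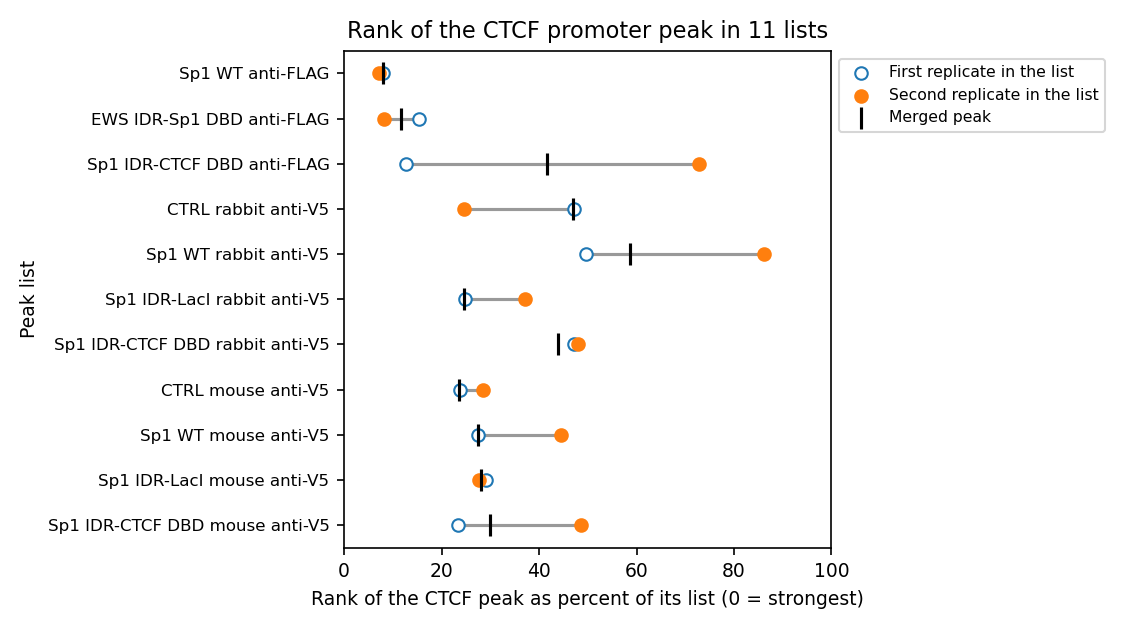
Rank of the CTCF peak as a percent of its list (horizontal axis, 0 the strongest) in the 11 lists that hold it, with open and filled circles for the replicates in the order the lists give them and a black bar for the merged peak. Sp1 WT and EWS IDR-Sp1 DBD sit at the strong end, while the Sp1 IDR-CTCF DBD replicates lie far apart, at 12.7% and 72.9%.

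The summits at CTCF fell into separate positions for Sp1 and for the CTCF chimera. In the 10 Sp1 lists (Sp1 WT, EWS IDR-Sp1 DBD and 8 anti-V5) the summits lay from 253 to 350 bp upstream of the gene start, a span of 97 bp. The replicate summits ran from −367 to −176 bp. This stretch is annotated as a noncoding exon of CTCF-DT, a lncRNA that starts between the summits and the CTCF gene and is read from the opposite strand, and as an intron of ENSG00000261386. The Sp1 IDR-CTCF DBD peak, at chr16:67562029-67562884, had its summit 110 bp downstream of the gene start, in a 5′ UTR exon of CTCF. This summit lay 4 bp from another annotated CTCF transcript start. The replicate summits of the chimera were 3 bp apart, at 109 and 112 bp. The distance from the chimera summit to those of the Sp1 lists was 363 to 460 bp, and no replicate summit of a Sp1 list came closer than 285 bp. All 11 peaks nevertheless shared a stretch of 538 bp, chr16:67562029-67562566.

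The chimera peak at CTCF differed in strength between its replicates. It ranked 69 of 166, with an IDR rate of 0.0350. Its replicate −log10 p values of 18.4 and 12.8 ranked 21 and 121 among the same 166 peaks. CTCF DBD, the same zinc fingers without the Sp1 IDR, had its nearest peak 40.6 kb away at RIPOR1. Of 165 genes with a Sp1 IDR-CTCF DBD peak, 128 (77.6%) also had a CTCF DBD peak, and those 128 were 22.9% of the 560 genes of CTCF DBD. A Sp1 WT peak was present at 120 of the 165 genes (72.7%). Of the 569 genes with a peak in all 10 Sp1 lists, 22 had a chimera peak and 4 of these, CTCF included, lacked a CTCF DBD peak.

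**Figure D3:**
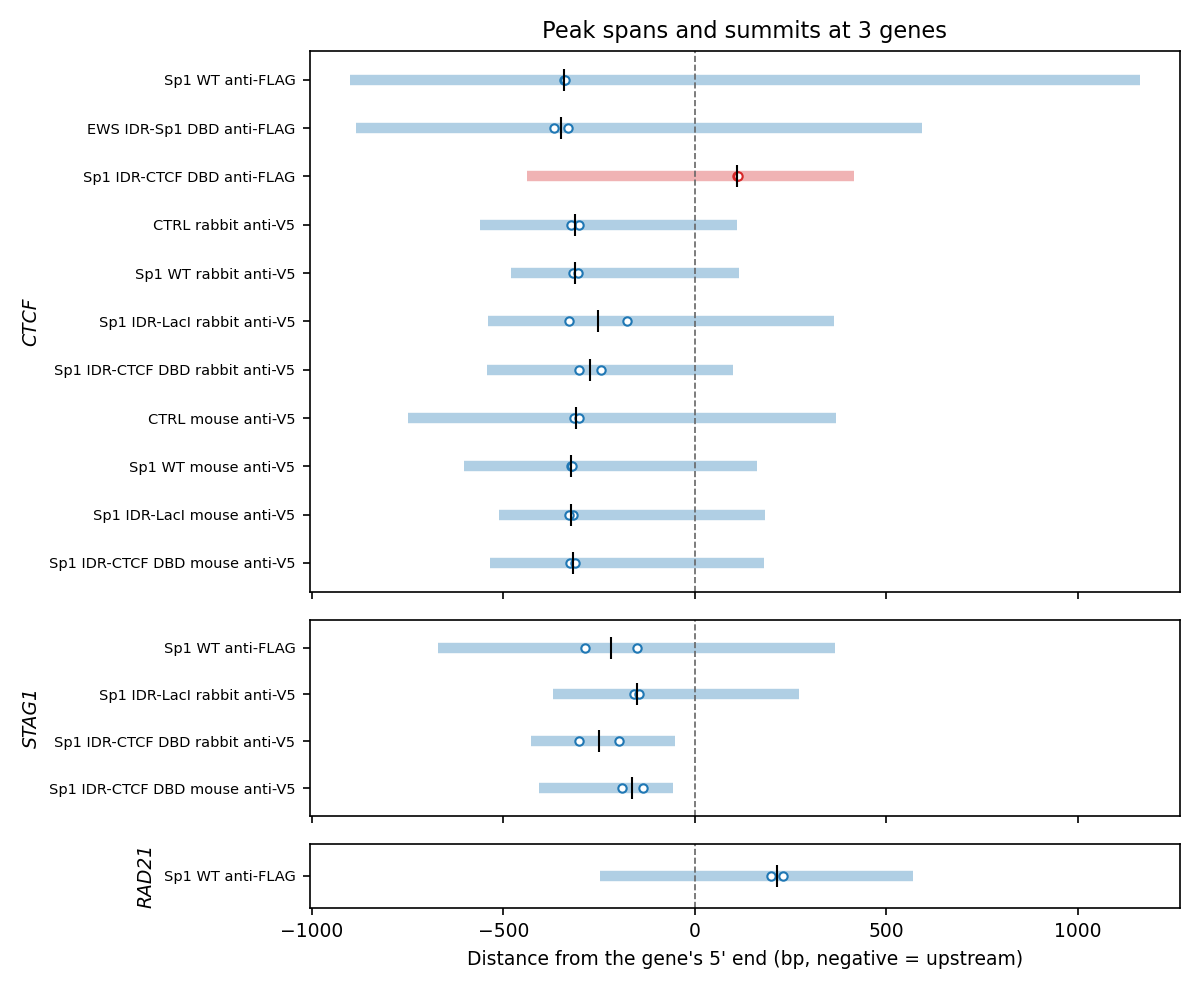
Peak spans (bars), replicate summits (open circles) and merged summits (black ticks) at CTCF, STAG1 and RAD21 by list, as distance in bp from the annotated gene start (dashed line, negative upstream). At CTCF the 10 Sp1 lists (blue) have summits 253 to 350 bp upstream, and the chimera (red) has its summit 110 bp downstream.

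The GC boxes near the summits at CTCF also differed. GC boxes (GGGCGG on either strand, overlapping matches counted) numbered 3 to 5 within 100 bp of the summit in each of the 10 Sp1 lists. The nearest box was 17 to 73 bp from the summit in these lists. The Sp1 WT peak held 22 over its whole length of 2065 bp. A GC box lay within 100 bp of the summit in 70.2% of all Sp1 WT peaks and 72.7% of all EWS IDR-Sp1 DBD peaks. In the 8 anti-V5 lists this share ran from 74.2% (rabbit, Sp1 WT cells) to 84.4% (mouse, CTRL cells). The chimera summit at CTCF had 0 within 100 bp, the nearest being 110 bp away, although the peak held 8 in its 856 bp. Among all chimera peaks, 32.5% had a GC box within 100 bp. None of the 11 CTCF peaks, that of the chimera included, held an exact match to the degenerate CTCF core motif. Such a match was present in 17.5% of chimera peaks and 13.9% of CTCF DBD peaks, against 1.75% of Sp1 WT peaks.

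STAG1 (ENSG00000118007.13, chr3:136336236-136752403, minus strand), which encodes 1 of the alternative SA subunits of mitotic cohesin, had a Sp1 WT peak at chr3:136752036-136753073. It ranked 1476 of 5151, within the strongest 28.7%, with −log10 p values of 26.6 and 48.0. The summit was 219 bp upstream of STAG1 and 8 bp from the start of STAG1-DT, a divergent lncRNA, which was therefore the nearest annotated start. Replicate summits lay at −286 and −152 bp, 134 bp apart. No Sp1 DBD, EWS IDR-Sp1 DBD, CTCF DBD or Sp1 IDR-CTCF DBD peak was called at STAG1. The nearest peaks of Sp1 DBD and EWS IDR-Sp1 DBD, at PPP2R3A, were both 393 kb from the closest of the 8 annotated STAG1 starts. That distance was not measured from the Sp1 WT summit.

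Endogenous Sp1 at STAG1 was near the bottom of the lists that held it. The peak ranked 1907 of 2126 in Sp1 IDR-LacI cells and 1720 of 2172 in Sp1 IDR-CTCF DBD cells with rabbit anti-V5, and 1322 of 1413 in Sp1 IDR-CTCF DBD cells with mouse anti-V5. Between the antibodies in Sp1 IDR-CTCF DBD cells, both mouse replicates (93.6% and 99.4%) ranked below both rabbit replicates (79.2% and 67.7%), as for 56.7% of 1542 genes. The IDR rates were 0.0563, 0.0186 and 0.0810. Neither CTRL nor Sp1 WT cells had a STAG1 peak with either antibody, and Sp1 IDR-LacI cells had none with the mouse antibody. The called peaks stood at 79.2% to 93.6% of their lists, and a difference between the lines was not tested. The 4 STAG1 summits lay 152 to 250 bp upstream, a span of 98 bp, and the peaks shared 314 bp. The GC boxes within 100 bp of these summits numbered 2 or 3. The same combination of lists was found for 2 other genes, RAB11FIP4 and AATK.

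STAG1 also held CTCF motifs at its start. There were 2 exact CTCF core matches on the gene's own strand, CCAGCAGAGGGC at chr3:136752407-136752418 and CCACCAGATGGC at chr3:136752349-136752360, centred at −10 and 48 bp. They are shown because both lay inside the Sp1 WT peak, and inside the rabbit anti-V5 peak of Sp1 IDR-LacI cells. Neither CTCF construct had a peak there. CTCF DBD had a peak at 2.80% of all protein-coding genes and Sp1 IDR-CTCF DBD at 0.826%. How many genes with such a match had a peak of either construct was not counted. The first match overlaps 1 GC box. Of all protein-coding genes, 207 (1.04%) had such a match within 500 bp of the start and 3 of them, STAG1 included, had 2 or more (0.0150%). The other 9 genes examined here had 0 exact matches, and matches with mismatches were not counted. An exact match was present in only 13.9% of CTCF DBD peaks, so its absence does not show that a gene lacks a CTCF site. The nearest CTCF DBD peak, at PCCB, was 108 kb from the closest of the 8 annotated STAG1 starts. That distance was not measured from these matches. A match describes the sequence and does not show an occupied site.

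RAD21 (ENSG00000164754.16, chr8:116845934-116874776, minus strand), the kleisin that closes the cohesin ring, had a peak in the Sp1 WT list alone. It ranked 3508 of 5151, at 68.1% of the list, with −log10 p values of 14.5 and 21.6 and an IDR rate of 0.0217. The summit lay 215 bp inside the gene, 33 bp from an annotated RAD21 transcript start, in an intron that overlaps an exon of RAD21-AS1. It had 2 GC boxes within 100 bp. A peak in the Sp1 WT list and in no other was common, shared with 1267 genes and making up 23.0% of the genes with a Sp1 WT peak.

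The remaining 7 genes had no peak by the rule, and their nearest Sp1 WT peaks lay 11.5 to 634 kb from a start. SMC1A, which encodes a ring subunit on the X chromosome, came closest. Its nearest Sp1 WT peak was 11.5 kb from a SMC1A start, ranked 5055 of 5151, and lay at HSD17B10. The nearest Sp1 WT peak to SMC3, the other SMC subunit, was 168 kb away, and a Sp1 DBD peak lay 36.9 kb away at the pseudogene RPL7P35. WAPL, which releases cohesin from chromatin, had its nearest Sp1 WT peak 13.5 kb away at WAPL-DT, ranked 3576. For STAG2, the X-linked relative of STAG1, the distance was 99.6 kb, to XIAP. For PDS5A and PDS5B, which regulate release and acetylation of cohesin, it was 209 kb and 270 kb, the latter at BRCA2. NIPBL, the loader, was farthest at 634 kb, with the nearest Sp1 WT peak at NADK2. Among the paralogs, STAG1 was in 4 lists and STAG2 in 0, and PDS5A and PDS5B were both in 0.

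GC boxes were present at all 10 gene starts, with and without a peak. In the window from 250 bp before to 50 bp after the start, 10 of 10 held at least 1 GC box, against 52.4% of all protein-coding genes. Genes with a Sp1 WT peak held one in 70.1% and genes without in 45.7%. Within 500 bp to either side the 3 genes with a peak had 14 (CTCF), 10 (STAG1) and 6 (RAD21) boxes, with a median of 10. The 7 genes without a peak had 8 (PDS5A), 7 (PDS5B), 6 (WAPL), 4 (SMC1A, SMC3 and STAG2 each) and 3 (NIPBL), with a median of 4. The median over all genes was 2. WAPL equalled RAD21, and both PDS5 genes exceeded it, so the 2 groups overlapped. CTCF was at the upper end of all genes, 1.40% of which had 14 or more. Of all genes with a GC box within 500 bp, 33.5% had a Sp1 WT peak. A gene without a peak is one at which no reproducible peak was called. Signal below that limit was not examined, so absence of binding is not shown.

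**Figure D4:**
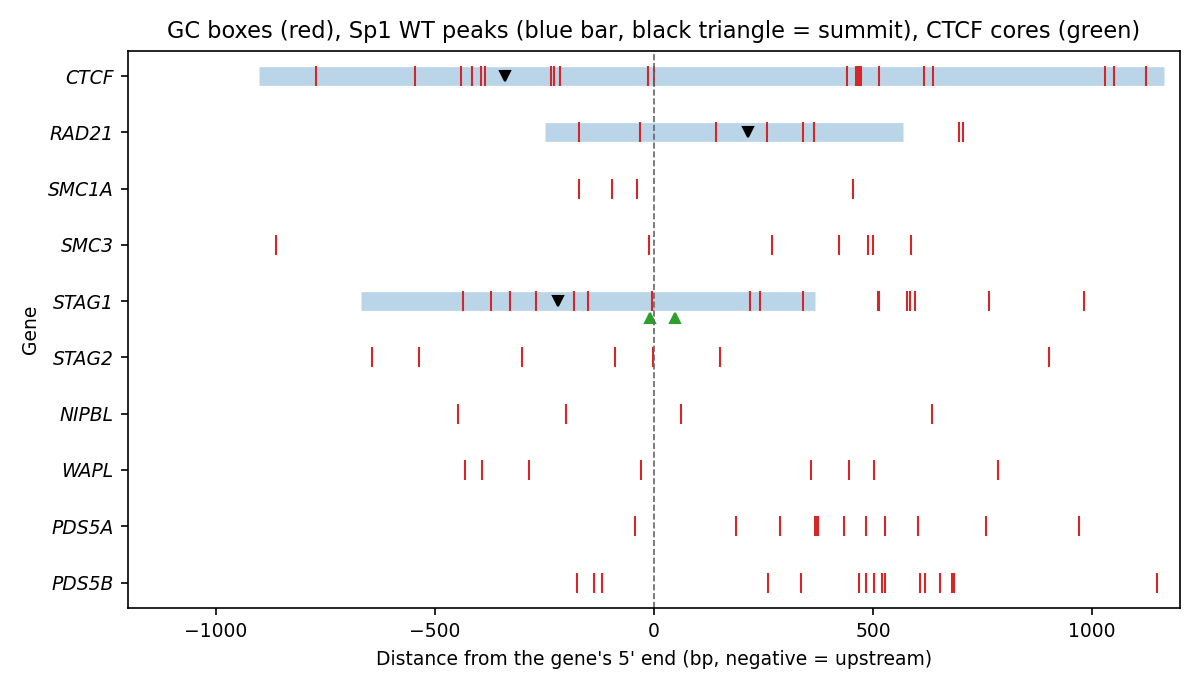
GC boxes (red ticks) around the annotated start of each of the 10 genes (horizontal axis, bp, negative upstream), with the Sp1 WT peak as a blue bar, its summit as a black triangle, and exact CTCF core matches in green. All 10 rows have red ticks near the start, 3 have a peak, and green marks appear at STAG1.

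Other genes of the cohesin cycle were counted by the same rule. Of 13 such genes (MAU2, ESCO1, ESCO2, CDCA5, HDAC8, SGO1, ESPL1, PTTG1, CTCFL, STAG3, REC8, SMC1B and RAD21L1), 4 had a Sp1 WT peak (30.8%, against 27.6% of all genes), 3 a Sp1 DBD peak (23.1%, against 18.5%) and 2 an EWS IDR-Sp1 DBD peak (15.4%, against 13.4%). None had a peak of CTCF DBD (2.80% of all genes) or of Sp1 IDR-CTCF DBD (0.826%). STAG3, the meiotic relative of STAG1, ranked 322 in the Sp1 WT list with its summit 9 bp from a STAG3 start. RAD21L1, a meiotic kleisin, ranked 687 with its summit 200 bp from a start. Both were in 11 lists, Sp1 DBD among them, where their mitotic relatives STAG1 and RAD21 were in 4 and 1. PTTG1, which encodes securin, ranked 2575 with its summit 5 bp from a start.

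Of 10 condensin and SMC5/6 genes, which encode related SMC complexes, 4 had a Sp1 WT peak (27.6% of all genes), 3 a Sp1 DBD peak (18.5%) and 2 an EWS IDR-Sp1 DBD peak (13.4%). None had a peak of CTCF DBD (2.80%) or of Sp1 IDR-CTCF DBD (0.826%). NCAPD2 ranked 1964 in the Sp1 WT list, with MRPL51 as the nearest start at 98 bp. NCAPH2 ranked 2321 and SMC2 ranked 2958, with summits 196 and 290 bp from their own starts. None of these 3 ranked as high in that list as CTCF, at 406.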

How the data were processed

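CUT&RUN peak lists of U2OS lines were used. Per the labels and the study's methods, the authors trimmed reads (Cutadapt 2.6), aligned them to hg38 (Bowtie2 2.3.5.1), removed duplicates (SAMtools 1.9), called peaks per replicate with MACS3 (given as 2.2.7.1) at p = 1e-3 without local background against merged controls, and ranked both replicates by p-value with IDR, keeping rates of at most 0.1. The deposited −log10 p-values of the merged peak (the smaller of the replicate values) and of each replicate were used for ranks only. The deposited score of each peak is the −log10 of its global IDR rate and was used for the stricter limits. Which labelled replicate came first is not given in the sources used here. The 6 differential tables, which hold the authors' comparisons of Sp1 WT with a construct, were not used. Read depth is unknown here, so no limit from depth is given.

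Genes and transcript starts came from GENCODE 44. A rank percent is the rank divided by the number of peaks of that list. Replicate values were ranked among those same peaks, not among all peaks called in a replicate. Nearest distances run from a peak's edge to the nearest start of the gene. Replicates were called non-overlapping when both ranks of one list were weaker, or both stronger, than both of the other. The percentages beside counts cover all 19970 protein-coding genes by the same rule, and the numbers of genes per list were the same from bedtools 2.31.1 in 19 of 19 lists. Motifs were searched on both strands of hg38 in the peak windows and at every gene start. The rule was tested on simulated data. Python 3.11.15, numpy 2.4.6, pandas 2.3.3 and matplotlib 3.10.9 were used. Each list gives 2 replicate values per peak, too few for an exact permutation test of 2 against 2 to pass 0.05, so no test was run. The genes named are all 10 members, and the 3 with the best Sp1 WT rank among the pathway genes and among the condensin and SMC5/6 genes. Genes sharing a list pattern were named where there were at most 3. The members and lists were chosen with earlier results of these data known. Features named beside nearest distances, and the CTCF core matches at STAG1, were picked after their values were seen.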

Additional observations from a re-analysis of the deposited data

How the results depend on the processing

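Of 182 values recomputed under alternatives, 166 stayed within 1.5 times the count or, for rank percentiles, within the spread of the replicates. The other 16 moved. That spread is the standard deviation of the same 2 replicate percentiles. In the 8 lists with no peak at the 10 genes, every alternative but the 10000 bp reach could only remove peaks. Their counts of 0 were fixed in advance under those settings. Reach (1000 or 10000 bp), starts alone, summits and protein-coding transcripts left every count of the 10 genes in every list unchanged. Removal of peaks that overlap the CTRL or SNAP-NLS anti-FLAG lists could change no count, because those lists had 0 peaks at the 10 genes. An IDR rate of at most 0.05 lowered the count to 1 for Sp1 IDR-LacI rabbit anti-V5 and for Sp1 IDR-CTCF DBD mouse anti-V5, by the loss of STAG1. At 0.01 the counts fell to 0 for Sp1 IDR-CTCF DBD anti-FLAG and for Sp1 WT rabbit anti-V5, by the loss of CTCF, and to 1 for the 3 anti-V5 lists with STAG1; RAD21 was lost from Sp1 WT, which kept 2. With the Sp1 WT, Sp1 DBD, EWS IDR-Sp1 DBD and 8 anti-V5 lists cut to their 1332 best peaks, Sp1 WT kept 1 gene, CTCF, without STAG1 and RAD21, and rabbit anti-V5 in Sp1 IDR-LacI and in Sp1 IDR-CTCF DBD cells kept 1 each. Cut to 1790 peaks among rabbit lists, Sp1 IDR-LacI kept 1. Ranked by the second replicate alone, the Sp1 WT percentiles were 7.20% for CTCF, 24.7% for STAG1 and 77.6% for RAD21. A GC box lay within 100 bp of the summit in 15 of 16 peaks, in the whole peak in 16, within 50 bp in 9, and the longer GGGGCGGGG within 100 bp in 4. These 16 peaks lie at 3 promoters, 11 of them at CTCF, and are not independent. In the same order, the shares were 70.2%, 92.6%, 45.3% and 27.2% of all Sp1 WT peaks. For all CTRL mouse anti-V5 peaks they were 84.4%, 95.3%, 66.6% and 43.1%. The alternative ranking by signal value was not run, because that column holds no measured value. No paired analysis was possible because which labelled replicate comes first in each list is not given, so replicate numbers could not be matched, and no test was run.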
